A study of Triticum aestivum with 45 samples.

Results

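The genes described here are the 3 VERNALIZATION1 (VRN1) homoeologs of hexaploid bread wheat, VRN-A1 (TraesCS5A01G391700), VRN-B1 (TraesCS5B01G396600) and VRN-D1 (TraesCS5D01G401500), on chromosomes 5A, 5B and 5D. They were chosen by identifier, not by a measured value, and are 3 of the 110790 genes counted. The name VRN1 came with the identifiers, since the count table names no gene. RNA-seq libraries had been made from spikelets of 3 genotypes, in 15 groups of 3 libraries.

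The doubled haploid line GS-1-EM0040 (DH1) has the pedigree ‘CIMMYT11’/‘Superb’*2, and the doubled haploid line GS-1-EM0168 (DH2) has the pedigree ‘CM82036’/‘Superb’*2. The other genotype was their shared parent Superb, a hard red spring wheat cultivar from Canada. Each line is a single doubled haploid, so a difference between a line and Superb is one of that line. In each genotype, spikes at anthesis were sprayed with MeJA (methyl jasmonate), ethephon, which releases ethylene, or SA (salicylic acid), each at 100 µM, or with water, and were taken at 8 h. The remaining group of each genotype was untreated and taken at 0 h. All groups were spikelets at flowering, 1 spikelet per spike, and the labels give 5 plants for each treatment group. They do not say whether the replicates were separate plants, so the p-values here rest on the variation among these libraries alone, and part of it may be technical.

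VRN1 encodes a MADS-box transcription factor of the APETALA1/FRUITFULL kind. In temperate cereals it promotes the change of the shoot apex from leaf to spike formation. In winter wheat it is switched on by long cold (vernalization), whereas spring alleles, which often carry changes in the promoter or first intron, are active without cold. It stays active in the growing spike, where related MADS-box genes act in the identity of the spikelet and floral organs.

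The libraries held between 6446374 and 17940396 counts (median 11251553). Of all genes, 63091 passed the filter on low counts and were tested, the 3 homoeologs among them. A pair of libraries stood apart. The DH1 ethephon library of replicate 1 held 34 genes otherwise seen in DH2 alone at 13.9% of their DH2 level, against 0.519% to 1.40% in the other 14 DH1 libraries. The Superb ethephon library of replicate 1 held 33 genes otherwise seen in DH1 alone at 25.8% of their DH1 level, against 0.507% to 1.38% in the other 14 Superb libraries. Both sets of genes were chosen as low in the other genotypes with this pair left out. The low values in the other libraries therefore follow in part from that choice. Differences between genotypes and responses to ethephon are given with and without this pair where its libraries enter.

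All 3 homoeologs had reads in each of the 45 libraries. Levels are in CPM, counts scaled to the library total, with TMM, a correction for library composition. VRN-A1 had 278 to 1495 reads per library and 41.2 to 88.0 CPM. VRN-B1 ran from 21.1 to 40.6 CPM, and VRN-D1 from 3.19 to 29.9 CPM. CPM is not corrected for gene length, so these ranges do not rank the homoeologs against each other. In bulk tissue, fewer cells of a type and less RNA per cell cannot be told apart.

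The spread between the 3 libraries of a group differed among the genes. The median coefficient of variation over the 15 groups was 9.04% for VRN-A1, 8.63% for VRN-B1 and 35.4% for VRN-D1. Read counting alone would give medians of 3.79%, 5.36% and 8.28% in the same order. VRN-D1 thus had the widest spread of the 3, and counting noise is only part of what separates one library from another. What else entered that spread was not tested.

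**Figure D1:**
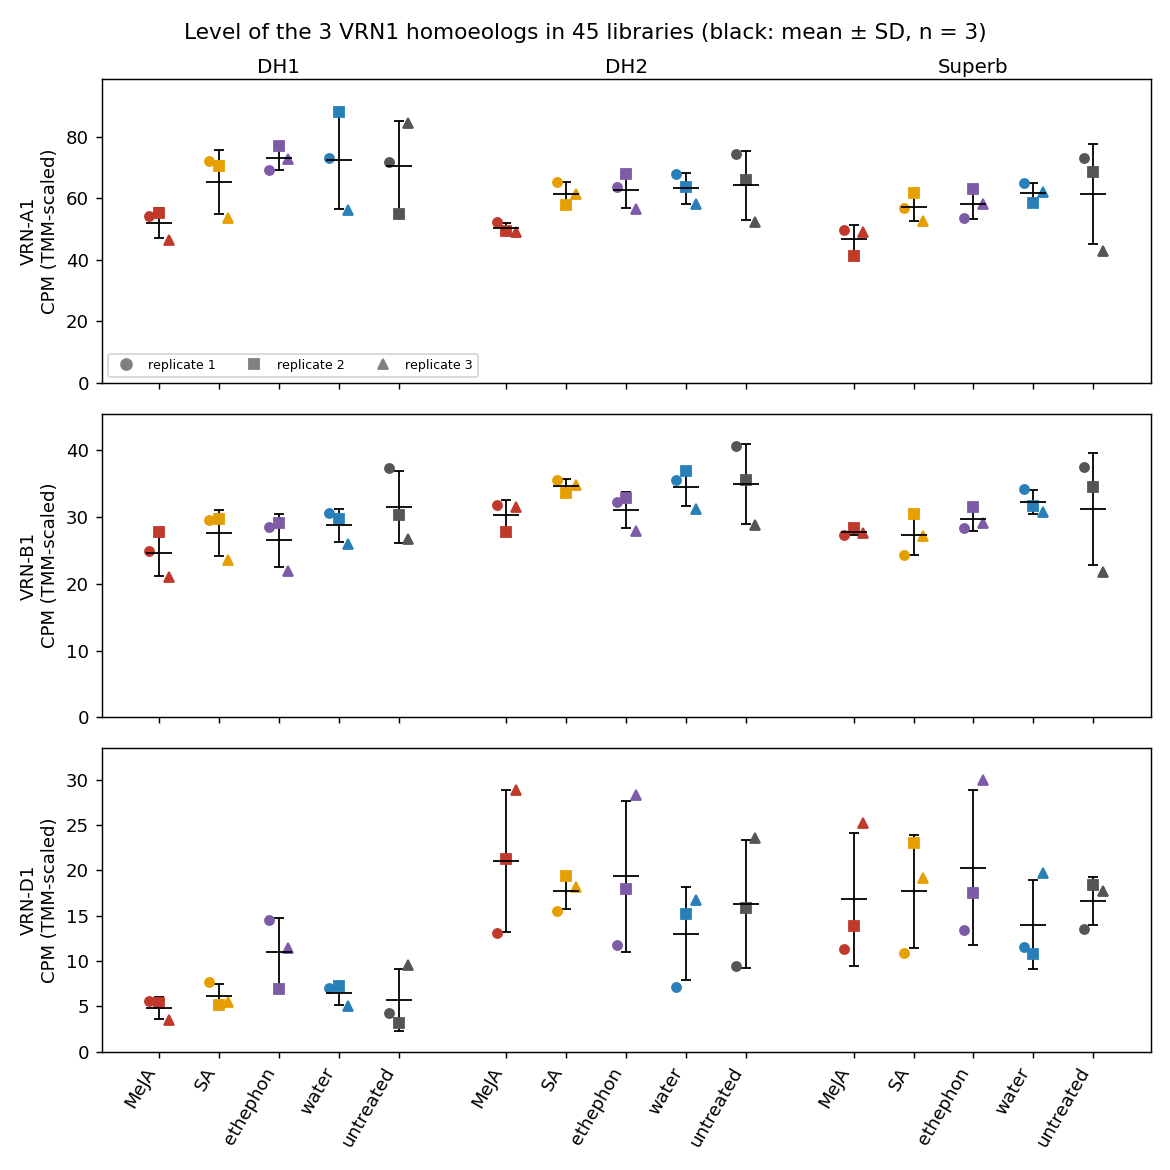
Level of VRN-A1, VRN-B1 and VRN-D1 (CPM, TMM-scaled; vertical axes start at 0) in the 45 libraries, by genotype and condition; circles, squares and triangles are replicates 1, 2 and 3, and black marks the mean ± SD of 3 libraries. VRN-A1 is lowest under MeJA in each genotype, and VRN-D1 is lower throughout DH1 than in most DH2 and Superb libraries.

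When the 15 group means were put in order, the lowest 3 of VRN-A1 were the MeJA groups, at 52.0 ± 4.86 CPM in DH1, 50.2 ± 1.71 CPM in DH2 and 46.6 ± 4.69 CPM in Superb (SD, n = 3 each). Its highest mean was 73.0 ± 3.93 CPM, in DH1 under ethephon, or 74.9 CPM over 2 libraries without the one that stood apart. The means of VRN-B1 lay between 24.6 ± 3.38 CPM in DH1 under MeJA and 34.9 ± 5.94 CPM in untreated DH2. For VRN-D1 the lowest 5 means were the 5 DH1 groups, from 4.81 ± 1.17 CPM under MeJA to 10.9 ± 3.83 CPM under ethephon (9.15 CPM over 2 libraries without the one that stood apart), and the highest was 21.1 ± 7.86 CPM in DH2 under MeJA. In none of the 3 orders were the libraries of any group apart from those of its neighbour in the order.

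Over the 15 libraries of each genotype, VRN-D1 was lower in DH1 than in Superb and DH2, by more than the SD between libraries. Its lowest, median and highest levels were 3.19, 5.63 and 14.5 CPM over 15 libraries of DH1, 7.17, 16.7 and 28.8 CPM over 15 of DH2, and 10.8, 17.5 and 29.9 CPM over 15 of Superb. Of the 15 DH1 libraries, 13 lay below every Superb library and 10 below every DH2 library, so the ranges overlapped at a few libraries. Among libraries of replicate 1 alone the means lay closer. They were 7.85 ± 3.96 CPM in DH1, 11.4 ± 3.23 CPM in DH2 and 12.1 ± 1.27 CPM in Superb (SD, n = 5 each).

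Over the mean of the 5 conditions, the log2 fold change of VRN-D1 was -1.35 ± 0.19 (SE) for DH1 against Superb, with 6.79 ± 3.06 CPM in DH1 and 17.1 ± 5.72 CPM in Superb (SD, n = 15 each). The adjusted p from edgeR's quasi-likelihood test with Benjamini-Hochberg adjustment over all tested genes was 1.31e-06. The counted level was thus 2.55-fold lower in DH1. In the same libraries VRN-A1 averaged 66.6 ± 12.4 CPM in DH1 and 57.0 ± 8.99 CPM in Superb. The sum of the 3 homoeologs was 101 ± 16 CPM in DH1 and 104 ± 13.5 CPM in Superb. Whether reads of VRN-D1 were assigned to another, closely similar copy was not tested. VRN-D1 was the 1 homoeolog of 3 called in this comparison, at an adjusted p under 0.05, beside 5.34% of all genes tested and 2.80% called lower.

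For DH1 against DH2 the log2 fold change of VRN-D1 was -1.39 ± 0.18 (edgeR adjusted p = 3.06e-07), with 17.5 ± 6.18 CPM in DH2, and 20.5% of all genes were called and 8.79% were called lower. Both comparisons share the DH1 libraries. DH2 and Superb did not differ detectably in VRN-D1, with a log2 fold change of 0.03 ± 0.17 (edgeR adjusted p = 0.940). Without both ethephon libraries that stood apart it was -0.012 (adjusted p = 0.986). With the replicate number left out of the model, none of the homoeologs was called for DH2 against Superb by edgeR or by DESeq2, beside 10.7% of all genes, while 1 of 3 (VRN-B1) had an unadjusted p under 0.05.

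The highest VRN-D1 level in DH1, 14.5 CPM, was that of the ethephon library of replicate 1, which also held genes of DH2. Without it the DH1 mean was 6.24 ± 2.27 CPM (SD, n = 14) and the highest DH1 library 11.4 CPM. Without that library and the Superb ethephon library of replicate 1, the log2 fold change for DH1 against Superb was -1.46 (edgeR adjusted p = 8.12e-07) and that for DH1 against DH2 -1.44 (adjusted p = 2.74e-07). The difference was thus at least as large without them. With each library or each replicate number left out in turn it stayed called, at log2 fold changes from -1.65 to -1.19 against Superb and from -1.72 to -1.22 against DH2.

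The lower level of VRN-D1 in DH1 had the same direction in each condition. In MeJA-sprayed spikelets VRN-D1 had 5.63, 5.34 and 3.47 CPM in DH1, 13.1, 21.2 and 28.8 CPM in DH2, and 11.4, 13.9 and 25.2 CPM in Superb. In SA-sprayed spikelets it had 7.70, 5.11 and 5.46 CPM in DH1, 15.5, 19.4 and 18.2 CPM in DH2, and 10.8, 23.1 and 19.2 CPM in Superb. In both conditions every DH1 library lay below every library of the other genotypes.

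Under ethephon VRN-D1 had 14.5, 6.91 and 11.4 CPM in DH1, 11.8, 17.9 and 28.3 CPM in DH2, and 13.4, 17.5 and 29.9 CPM in Superb. Here DH1 overlapped both other genotypes, through the library that held genes of DH2. In water-sprayed spikelets it had 7.07, 7.21 and 5.01 CPM in DH1, 7.17, 15.2 and 16.7 CPM in DH2, and 11.5, 10.8 and 19.7 CPM in Superb. In untreated spikelets it had 4.31, 3.19 and 9.54 CPM in DH1, 9.48, 15.9 and 23.6 CPM in DH2, and 13.5, 18.4 and 17.8 CPM in Superb. DH1 lay below Superb in both of these conditions, and overlapped DH2 at 1 library of each.

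Within single conditions, with 3 libraries against 3, the log2 fold change of VRN-D1 for DH1 against Superb was -1.76 under MeJA, -1.53 under SA, -0.87 under ethephon, -1.11 under water and -1.50 untreated. It was called by edgeR under MeJA (adjusted p = 0.0258) and not in the other 4 conditions, where adjusted p ran from 0.0605 to 0.612. The comparisons within MeJA, SA and ethephon were added after seeing the data. Those within water (edgeR adjusted p = 0.277) and untreated (adjusted p = 0.0605) were planned. Without the DH1 and Superb ethephon libraries of replicate 1, which left 2 libraries in each of these groups, the value under ethephon was -1.39 ± 0.49 and not called (adjusted p = 0.42). Of all genes 1.17% were called under MeJA, 1.24% under SA, 1.24% under ethephon, 1.40% under water and 1.29% untreated. For DH1 against DH2 the log2 fold change of VRN-D1 was -2.11 under MeJA, -1.53 under SA and -1.49 untreated, all called by edgeR (adjusted p = 0.00116, 0.0253 and 0.0376), and it was not called at -0.80 under ethephon and -1.0 under water. Under ethephon it was -1.09 ± 0.45 without the DH1 library that stood apart (adjusted p = 0.343). Beside these, 3.12%, 4.74% and 2.66% of all genes were called under MeJA, under SA and untreated, with 3.44% under ethephon and 5.30% under water. The test of whether line differences varied over the conditions, with 8 degrees of freedom, gave an adjusted p of 1 for each homoeolog. It called 0.106% of all genes, 67 in number, and 26 without both ethephon libraries that stood apart, when each homoeolog again had an adjusted p of 1.

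VRN-B1 differed between the doubled haploid lines, by a smaller amount. It had 21.1, 28.5 and 37.4 CPM in DH1 and 27.8, 32.9 and 40.6 CPM in DH2 as the lowest, median and highest of 15 libraries. The ranges overlapped widely, although 7 DH1 libraries lay below every DH2 library. The means were 27.8 ± 4.04 CPM in DH1 and 33.1 ± 3.52 CPM in DH2, a log2 fold change of -0.25 ± 0.07 with an edgeR adjusted p of 0.00545. Together with VRN-D1 this made 2 of 3 homoeologs called for DH1 against DH2, beside 20.5% of all genes.

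Leaving out all libraries of replicate 1 or of replicate 2 ended this call of VRN-B1 (edgeR adjusted p = 0.0523 and 0.0508). Without both ethephon libraries that stood apart it was -0.26 and stayed called (adjusted p = 0.0068). Superb averaged 29.6 ± 4.0 CPM, between both lines, and neither line was called against it in the model without the replicate number. The log2 fold change of VRN-B1 was -0.09 ± 0.07 for DH1 (edgeR adjusted p = 0.518) and 0.16 ± 0.07 for DH2 (adjusted p = 0.135). Leaving out both ethephon libraries gave -0.11 (adjusted p = 0.48) and 0.15 (adjusted p = 0.194).

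VRN-A1 was not called between any genotypes in the model without the replicate number. It averaged 66.6 ± 12.4 CPM in DH1, 60.4 ± 7.52 CPM in DH2 and 57.0 ± 8.99 CPM in Superb (SD, n = 15 each), with wide overlap. The log2 fold change was 0.22 ± 0.07 for DH1 against Superb (edgeR adjusted p = 0.0652), 0.08 ± 0.07 for DH2 against Superb (adjusted p = 0.536) and 0.14 ± 0.07 for DH1 against DH2 (adjusted p = 0.191). With both ethephon libraries that stood apart left out, these were 0.22 (adjusted p = 0.105), 0.07 (adjusted p = 0.644) and 0.15 (adjusted p = 0.196). With a library or a replicate number left out, the adjusted p for DH1 against Superb ran from 0.0256 to 0.397 and lay below 0.05 in 4 of 33 such fits. Those 4 were without DH1 untreated replicate 2, DH1 water replicate 3, DH1 SA replicate 3 or Superb untreated replicate 1, each left out alone.

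The share of each homoeolog in the summed counts of the 3 follows from these levels and is free of library scaling. Because length is not corrected, each share is compared between genotypes for 1 homoeolog at a time, and as a description without a test. VRN-D1 made up 6.61% ± 2.45 of the VRN1 counts in DH1, 15.9% ± 5.85 in DH2 and 16.5% ± 4.95 in Superb (SD, n = 15 each). Single libraries ran from 3.61% to 12.9% in DH1, from 6.47% to 26.3% in DH2 and from 10.4% to 25.6% in Superb. Without the DH1 ethephon library of replicate 1, the DH1 share was 6.16% ± 1.78 with a highest value of 10.8%.

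VRN-A1 held 65.6% ± 2.76 of the counts in DH1, 54.3% ± 4.36 in DH2 and 54.9% ± 3.89 in Superb. The 3 shares of a library add up to the whole, so a lower VRN-D1 share goes with higher shares of the others. The level of VRN-A1 itself was not called between genotypes in the model without the replicate number. Its lowest DH1 share, 61.70%, lay above the highest DH2 share, 61.44%, and just below the highest Superb share, 61.75%. That lowest DH1 share was that of the ethephon library of replicate 1, and without it the lowest was 62.06%, above every Superb library. The share of VRN-B1 was closer among the genotypes, at 27.8% ± 3.81 in DH1, 29.8% ± 2.18 in DH2 and 28.7% ± 2.47 in Superb. The summed level of the 3 homoeologs was 101 ± 16 CPM in DH1, 111 ± 7.44 CPM in DH2 and 104 ± 13.5 CPM in Superb. The sums of the 3 genotypes overlapped.

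**Figure D2:**
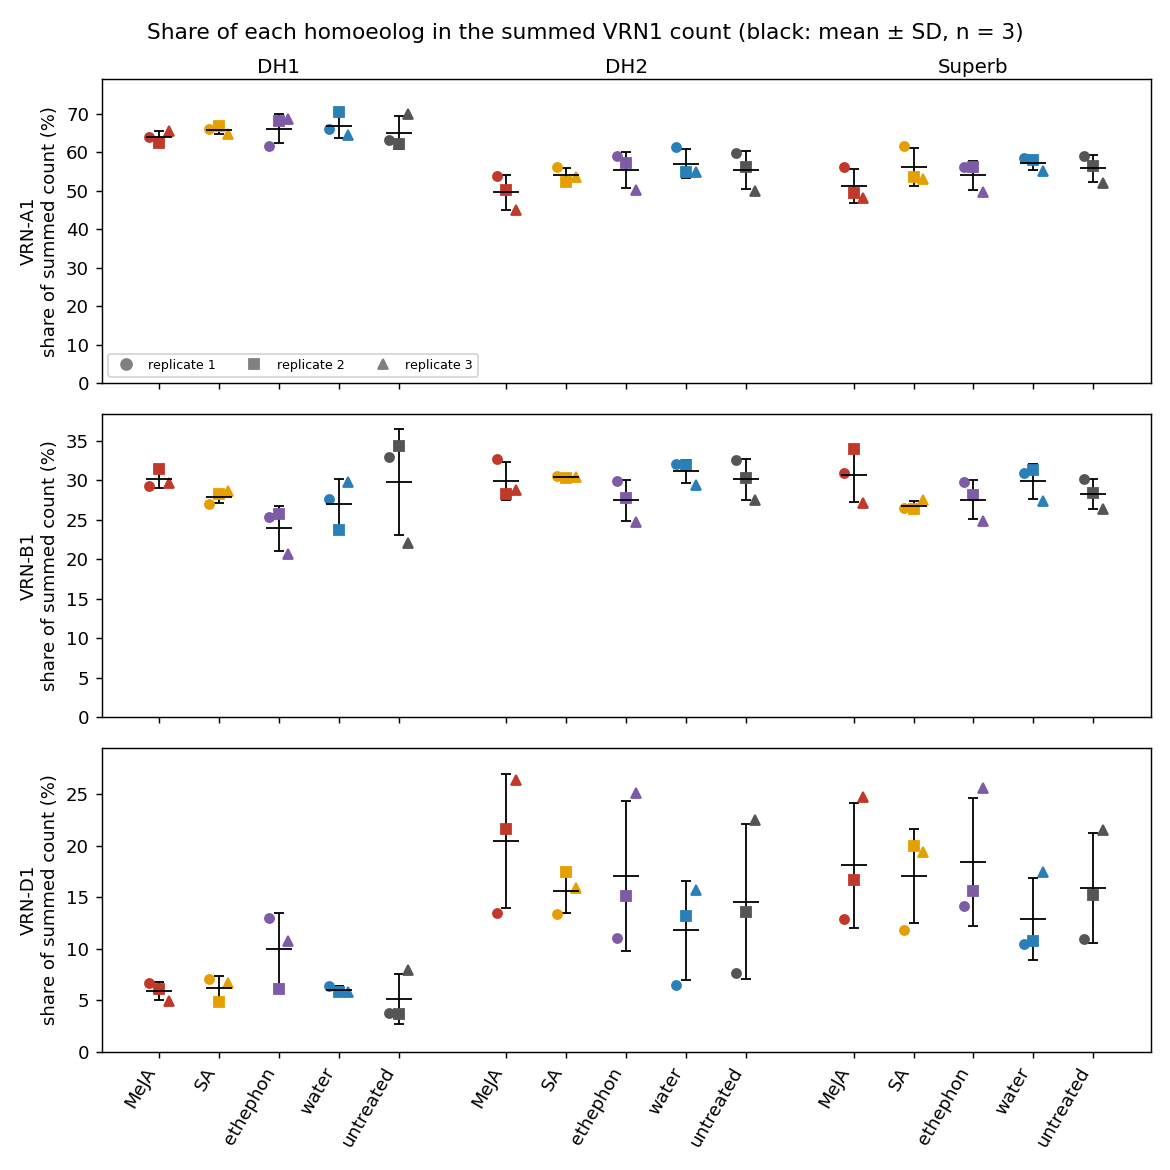
Share of VRN-A1, VRN-B1 and VRN-D1 in the summed counts of the 3 homoeologs (percent; vertical axes start at 0) in the 45 libraries, drawn as in the plot of levels. VRN-A1 sits at 61.7% or more in DH1, and VRN-D1 at 12.9% or less there.

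Within a genotype the VRN-D1 shares of the 5 conditions overlapped with one another. In DH1 it was 5.86% ± 0.883 under MeJA, 6.18% ± 1.16 under SA, 9.93% ± 3.49 under ethephon (8.43% over 2 libraries without the one that stood apart), 5.98% ± 0.364 under water and 5.11% ± 2.43 untreated (SD, n = 3 each). In DH2 the same shares were 20.5% ± 6.49, 15.6% ± 2.09, 17.1% ± 7.25, 11.8% ± 4.78 and 14.6% ± 7.50. In Superb they were 18.1% ± 6.07, 17.1% ± 4.57, 18.4% ± 6.22, 12.9% ± 4.0 and 15.9% ± 5.35. Within each of DH2 and Superb the water group had the lowest mean share. For a single library the 95% Wilson interval of the share was, for example, 11.5% to 14.5% for the value of 12.9% in DH1. Such intervals cover counting error only.

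VRN-A1 fell under MeJA. The 9 MeJA libraries had 54.3, 55.3 and 46.4 CPM in DH1, 52.2, 49.4 and 49.1 CPM in DH2, and 49.7, 41.2 and 49.0 CPM in Superb. The 9 water libraries had 72.9, 88.0 and 56.1 CPM in DH1, 68.0, 63.5 and 58.1 CPM in DH2, and 64.8, 58.5 and 62.0 CPM in Superb. Every MeJA library lay below every water library, the highest at 55.3 CPM and the lowest at 56.1 CPM.

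Over the mean of the 3 genotypes VRN-A1 had 49.6 ± 4.22 CPM under MeJA and 65.8 ± 9.84 CPM under water (SD, n = 9 each). The log2 fold change was -0.41 ± 0.09, a 1.32-fold lower level, with an edgeR adjusted p of 0.000494. It stayed called when each of the 18 libraries was left out in turn, with log2 fold changes from -0.46 to -0.36. VRN-A1 was the 1 homoeolog of 3 called in this comparison, in which 45.4% of all genes were called and 21.7% were called lower, so a call under MeJA was common in these spikelets.

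Within genotypes the log2 fold change of VRN-A1 under MeJA was -0.48 ± 0.16 in DH1 (edgeR adjusted p = 0.0242), -0.33 ± 0.16 in DH2 (adjusted p = 0.142) and -0.41 ± 0.16 in Superb (adjusted p = 0.0703). Among all genes 27.7% were called in DH1 (11.4% lower), 23.5% in DH2 and 22.1% in Superb. The call in DH1 was lost without water replicate 1 (adjusted p = 0.0551), without water replicate 2 (log2 fold change -0.33, adjusted p = 0.176) or without MeJA replicate 3 (adjusted p = 0.106). The groups did not overlap within any genotype.

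VRN-B1 had lower means under MeJA in each genotype, but it was not called in the model without the replicate number. It averaged 27.6 ± 3.24 CPM under MeJA and 31.8 ± 3.31 CPM under water (SD, n = 9 each), and the groups overlapped. The log2 fold change over the 3 genotypes was -0.21 ± 0.09 with an edgeR adjusted p of 0.0508, which lies at the threshold. With each of the 18 libraries left out in turn the adjusted p ran from 0.0315 to 0.1. It lay below 0.05 in 5 of these fits, without DH1 MeJA replicate 2, DH1 water replicate 3, DH2 MeJA replicate 1, DH2 MeJA replicate 3 or DH2 water replicate 3, each left out alone. Within genotypes the log2 fold change of VRN-B1 was -0.22 in DH1, -0.19 in DH2 and -0.21 in Superb.

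VRN-D1 showed no shared direction under MeJA. Its log2 fold change was -0.42 ± 0.45 in DH1, 0.69 ± 0.39 in DH2 and 0.24 ± 0.40 in Superb, with edgeR adjusted p of 0.532, 0.211 and 0.744. Over the 3 genotypes it was 0.17 ± 0.24 (adjusted p = 0.602). The summed level of the 3 homoeologs was 91.4 ± 11.5 CPM under MeJA and 109 ± 10.4 CPM under water (SD, n = 9 each).

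SA gave no call for any homoeolog, in any genotype or over the 3 genotypes, by edgeR or by DESeq2, and no unadjusted p under 0.05. Over the genotypes the log2 fold change was -0.10 ± 0.09 for VRN-A1, -0.09 ± 0.09 for VRN-B1 and 0.23 ± 0.24 for VRN-D1, with edgeR adjusted p of 0.869, 0.865 and 0.883. Of all genes, 0.483% were called over the genotypes, 0.105% in DH1, 0.0491% in DH2 and 0.0206% in Superb. The standard error of VRN-D1 was more than 2 times that of the others, so a small change of it is the least visible.

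Ethephon likewise gave no call for a homoeolog by edgeR or DESeq2. VRN-D1 had 16.9 ± 7.70 CPM under ethephon and 11.1 ± 5.07 CPM under water over the genotypes (SD, n = 9 each), and these groups overlapped. Its log2 fold change was 0.61 ± 0.23, with an edgeR adjusted p of 0.632, and it was the 1 homoeolog with an unadjusted p under 0.05. It was 0.76 ± 0.42 in DH1, 0.55 ± 0.39 in DH2 and 0.52 ± 0.39 in Superb. Without both ethephon libraries that stood apart it was 0.47 in DH1, 0.55 in DH2, 0.75 in Superb and 0.59 over the genotypes (edgeR adjusted p = 0.842 over the genotypes), so the value was lower in DH1 and higher in Superb. VRN-A1 had a log2 fold change of -0.03 ± 0.09 and VRN-B1 of -0.13 ± 0.09 over the genotypes, and 0.0029 and -0.13 without both libraries. In this comparison edgeR called 0% of all genes, with 4618 at an unadjusted p under 0.05, and DESeq2 called 9 genes. Within genotypes edgeR called 0.00159% of all genes in DH1, 0% in DH2 and 0.0571% in Superb, which is 1, 0 and 36 genes. Without both ethephon libraries that stood apart it called 0 in each. With each library left out in turn the number ran from 0 to 63 in DH1, from 0 to 6 in DH2 and from 0 to 199 in Superb, the highest without DH1 ethephon replicate 2, DH2 water replicate 3 and Superb ethephon replicate 2.

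Between 0 h and 8 h no change of a homoeolog was detected. Water at 8 h against untreated at 0 h differs in spraying, in hours elapsed and in spikelet age, and may differ in time of day. These cannot be told apart. VRN-A1 had 65.8 ± 9.84 CPM at 8 h and 65.4 ± 12.9 CPM at 0 h, with a log2 fold change of 0.01 ± 0.09 (edgeR adjusted p = 0.950). For VRN-B1 it was -0.03 ± 0.09 (adjusted p = 0.798), and for VRN-D1 -0.16 ± 0.23 (adjusted p = 0.610). No homoeolog was called by edgeR or DESeq2 or had an unadjusted p under 0.05, in a comparison that called 47.8% of all genes. The same held within each genotype, where 25.7% of all genes were called in DH1, 26.8% in DH2 and 27.5% in Superb.

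Whether a response differed between the genotypes was tested with 2 degrees of freedom per gene. None of the homoeologs was called in any of the 4 responses by edgeR, each with an adjusted p of 1, and none had an unadjusted p under 0.05. A difference in the MeJA response of VRN-D1 between DH1 and DH2 was thus not detected, in spite of the opposite signs. The same tests called 0.0222% of all genes for MeJA, 0% for SA, 0% for ethephon and 0.00951% for water against untreated, with 1066 genes for SA and 1729 for ethephon at an unadjusted p under 0.05.

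**Figure D3:**
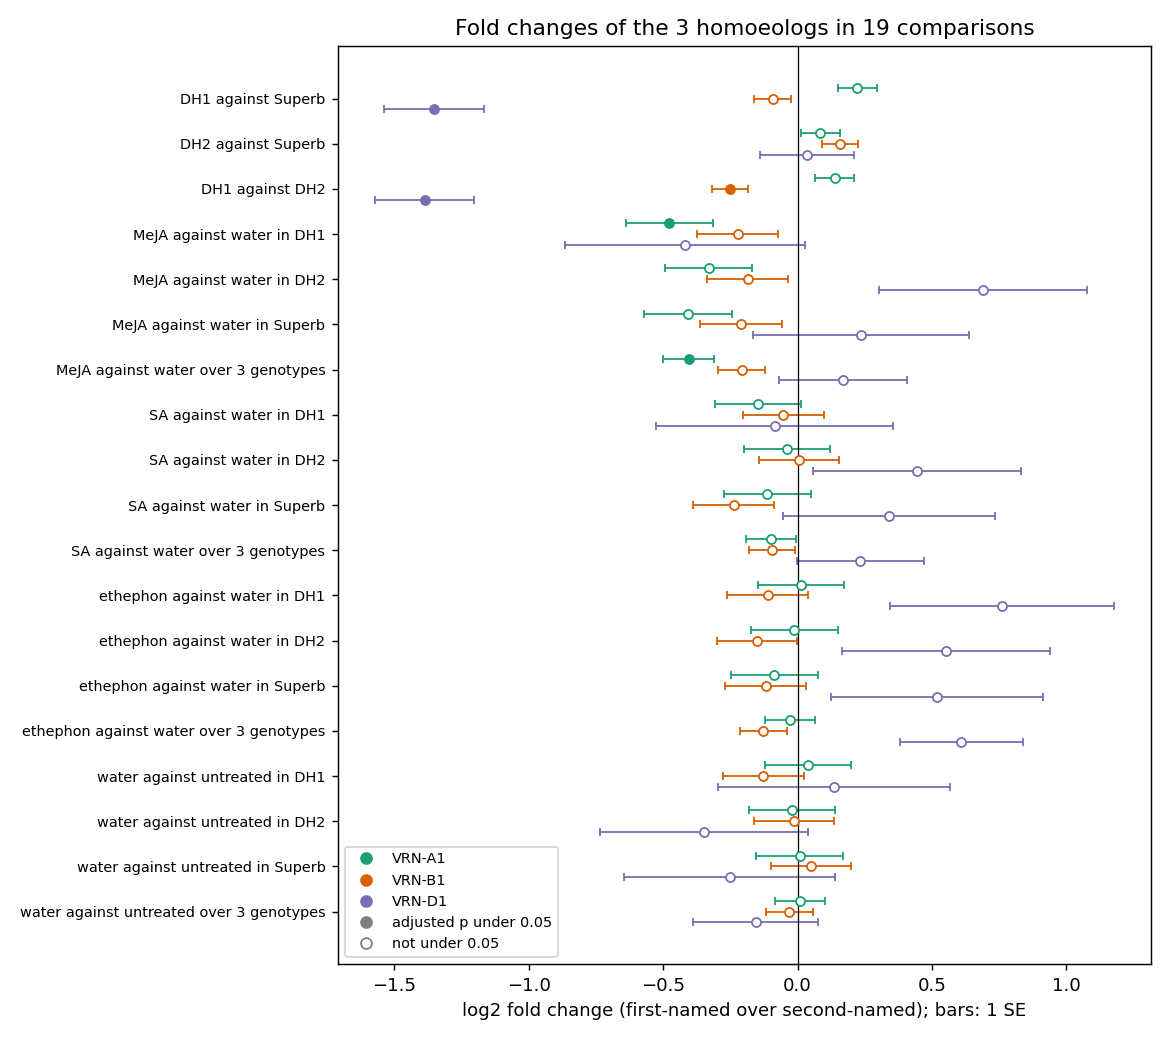
Log2 fold change (horizontal axis; first-named over second-named group, bars 1 SE) of VRN-A1, VRN-B1 and VRN-D1 in 19 comparisons; filled points are called at an edgeR adjusted p under 0.05. Of the 57 values 5 are called, among them VRN-D1 at -1.35 for DH1 against Superb and VRN-A1 at -0.41 for MeJA against water over 3 genotypes.

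VRN-D1 also differed with the replicate number that the labels give, which they do not tie to a plant, day or batch. In DH2 its lowest library was replicate 1 in 5 of 5 conditions and its highest replicate 3 in 4 of 5. In Superb replicate 1 was lowest in 4 of 5 conditions and replicate 3 highest in 3 of 5. DH1 did not share this order, with replicate 1 lowest in 0 of 5 and replicate 3 highest in 1 of 5.

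A test of the number with 2 degrees of freedom over all libraries, chosen after these values were seen, gave an edgeR adjusted p of 0.0243 for VRN-D1, with log2 differences of 0.26 for replicate 2 and 0.63 for replicate 3 against replicate 1. It also called VRN-B1, in the other direction, at -0.02 and -0.22 (adjusted p = 0.0177), but not VRN-A1 (adjusted p = 0.176). That made 2 of 3 homoeologs, beside 7.11% of all genes. What the number stands for was not tested.

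The mean of VRN-D1 was lower in DH1 than in DH2 and Superb within each number, as a description of 5 libraries per genotype. Among libraries of replicate 1 it averaged 7.85 ± 3.96 CPM in DH1, 11.4 ± 3.23 CPM in DH2 and 12.1 ± 1.27 CPM in Superb (SD, n = 5 each). Here DH1 ran from 4.31 to 14.5 CPM and DH2 from 7.17 to 15.5 CPM, so that the DH1 ethephon library of 14.5 CPM and the DH1 SA library of 7.70 CPM lay above the lowest DH2 library. The overlap with Superb was at the DH1 ethephon library. Among those of replicate 2 VRN-D1 averaged 5.55 ± 1.61 CPM in DH1, 17.9 ± 2.5 CPM in DH2 and 16.7 ± 4.65 CPM in Superb. Among those of replicate 3 it averaged 6.98 ± 3.34 CPM in DH1, 23.1 ± 5.60 CPM in DH2 and 22.3 ± 5.09 CPM in Superb. For replicates 2 and 3 DH1 did not overlap either genotype.

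**Figure D4:**
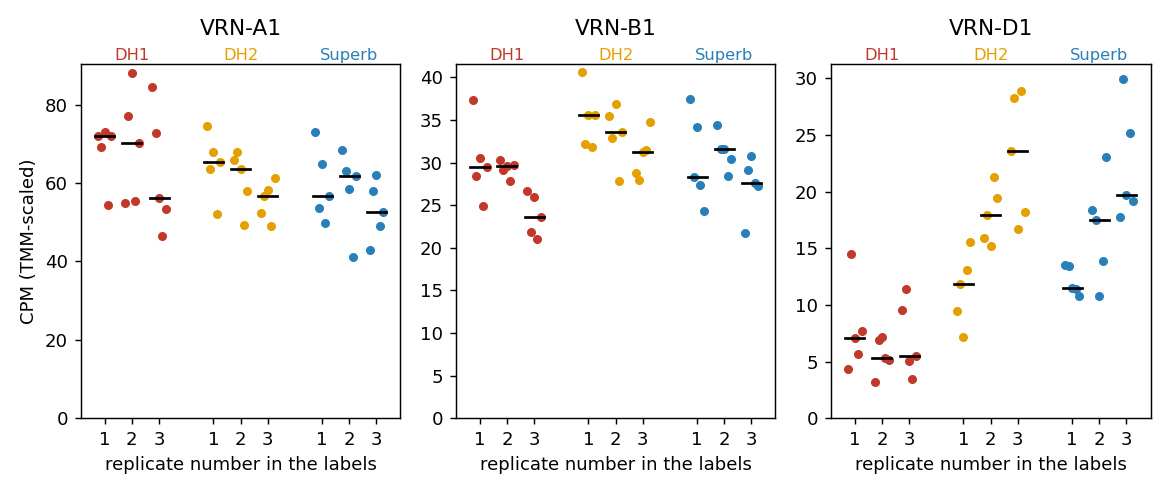
Level of VRN-A1, VRN-B1 and VRN-D1 (CPM, TMM-scaled; vertical axes start at 0) by replicate number within each genotype; each point is 1 library, and black bars are medians of 5 libraries. VRN-D1 is lowest in replicate 1 in 5 of 5 DH2 and 4 of 5 Superb conditions.

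The genes beside each homoeolog were compared between genotypes, taking the 10 tested genes on each side in the order of the identifiers. Around VRN-D1, 0 of 20 neighbours were called by edgeR or DESeq2 for DH1 against Superb, with 2 at an unadjusted p under 0.05, although VRN-D1 itself was lower. Around VRN-B1 it was also 0 of 20 by both tools, with 3 at an unadjusted p under 0.05. Around VRN-A1, itself not called without the replicate number in the model, 7 of 20 neighbours were called, beside 5.34% of all genes. Of these 7 neighbours, 4 were higher and 3 lower in DH1. Without both ethephon libraries that stood apart, the 7 became 4 of 20. The neighbour with the largest change there was TraesCS5A01G391400, with 0.778 ± 0.338 CPM in DH1 and 1.17 ± 0.526 CPM in Superb (log2 fold change -0.62 ± 0.19, edgeR adjusted p = 0.0474).

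For DH2 against Superb, 3 of 20 neighbours of VRN-D1 were called, all higher in DH2, beside 10.7% of all genes, and 0 of 20 by edgeR or DESeq2 around each other homoeolog, where 2 (VRN-A1) and 3 (VRN-B1) had an unadjusted p under 0.05. The largest change was that of TraesCS5D01G401700, with 4.66 ± 1.48 CPM in DH2 and 3.46 ± 1.83 CPM in Superb (log2 fold change 0.49 ± 0.13, edgeR adjusted p = 0.00808). For DH1 against DH2, 6 neighbours of VRN-A1 were called, 3 in each direction. Around VRN-B1 and VRN-D1 it was 3 each, all lower in DH1, beside 20.5% of all genes.

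**Figure D5:**
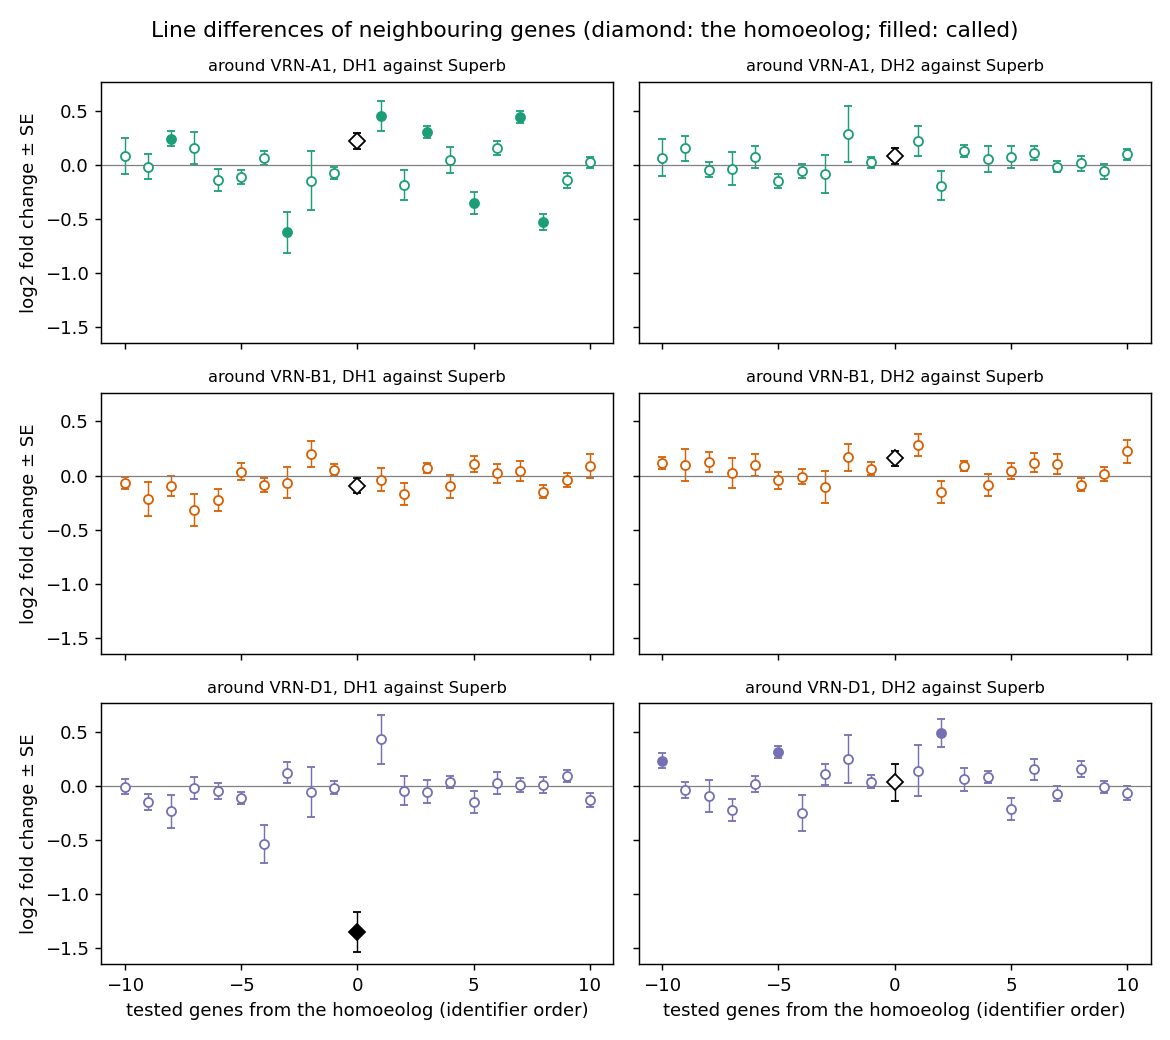
Log2 fold change ± SE (vertical axis) of the 10 tested genes on each side of VRN-A1, VRN-B1 and VRN-D1 by place in the identifier order (horizontal axis), for DH1 against Superb (left) and DH2 against Superb (right); diamonds are the homoeologs, and filled points are called. VRN-D1 in DH1 stands at -1.35 with 0 of 20 neighbours called, and VRN-A1 is not called with 7 of 20 neighbours called, in all 45 libraries.

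The 3 homoeologs did not follow one another over the 15 group means of log2 CPM. Pearson's r was 0.22 between VRN-A1 and VRN-B1, -0.36 between VRN-A1 and VRN-D1, and 0.44 between VRN-B1 and VRN-D1, as descriptions of groups that share libraries. Among 46387 genes ranked by their likeness to VRN-A1, VRN-B1 stood at place 16951 and VRN-D1 at place 33359. In the order for VRN-B1, VRN-D1 stood at place 6218 and VRN-A1 at place 13009. In that for VRN-D1, VRN-B1 stood at place 2436 and VRN-A1 at place 40701. Many genes were thus closer to each homoeolog than its own copies were, although VRN-B1 and VRN-D1 were nearer to each other than to VRN-A1.

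The genes most like VRN-A1 were TraesCS7B01G081200 (r = 0.954 over 15 groups) and TraesCS5A01G235600 (r = 0.953). Those most like VRN-B1 were TraesCS1B01G149900 (r = 0.909) and TraesCS2B01G337200 (r = 0.902). For VRN-D1 they were TraesCS5D01G188100 (r = 0.956) and TraesCS5A01G392800 (r = 0.949), which is also the eighth tested gene after VRN-A1. This neighbour of VRN-A1 averaged 5.58 ± 1.0 CPM in DH1, 8.11 ± 0.832 CPM in DH2 and 8.01 ± 0.973 CPM in Superb (SD, n = 15 each). Since it was named for its likeness to VRN-D1 over the group means, which are lowest in DH1, these levels describe that choice and are given without a test.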

How the data were processed

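RNA of wheat spikelets was sequenced in paired ends (Illumina HiSeq) from TruSeq RNA v2 libraries, per the labels' protocols. The values deposited by the authors are unscaled counts of reads for 110790 genes. STAR 2.5.3a and DESeq2 are named in the submitters' processing notes, without their roles. How reads were counted, on which strand, and how reads shared by several genes were treated is not stated in what was used here. The name of the deposited count table gives the build as IWGSC RefSeq v1.0, and the identifiers look like those of that build. Homoeologs have closely similar sequences, so reads may be split or lost among the copies, and each copy is less certain than their sum. None of the identifiers (0 of 110790) matched the reference gene table used here, of the assembly IWGSC CS RefSeq v2.1, so other genes are given by identifier, and lists of flowering genes and cell type markers were not used. Gene lengths and sequences were not used here.

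The tests used edgeR 4.0.16 under R 4.3.3. After filterByExpr by group, 63091 genes remained, holding 99.7% of the reads. TMM set the scaling, and the quasi-likelihood model had 15 group means, 45 libraries and 30 residual degrees of freedom. P-values were adjusted by Benjamini-Hochberg over all tested genes, and an adjusted p under 0.05 was a call. Standard errors are the absolute log2 fold change over the square root of F. Levels are CPM computed from the deposited counts. Alternatives were DESeq2 1.42.0, RLE scaling, no filter on low counts, a replicate block, fits within 1 genotype or condition, and leaving out libraries. The steps were tested on simulated data.

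Genes seen in 1 genotype alone had at least 5 CPM there and at most 5% of that level elsewhere, leaving out the libraries set apart. Likeness was Pearson's r over the group means of log2 CPM with a prior count of 2, among genes averaging 1 or more in log2 CPM. The genes named are the 2 most like each homoeolog, and the neighbour with the largest change among those called for each line against Superb. For DH1 against Superb the neighbour with the lowest adjusted p was added after seeing the data. The homoeologs, comparisons and lists were chosen with earlier results of these data known.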

Additional observations from a re-analysis of the deposited data

How the results depend on the processing

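The calls of VRN-D1 for DH1 against Superb and DH2 and of VRN-A1 for MeJA over the 3 genotypes held under RLE scaling, DESeq2, no filter on low counts, the replicate block and each library left out. No called value changed its sign under any setting tried. RLE and DESeq2 scaling moved the median of all genes by under 0.1 on the log2 scale. The depth limits VRN-D1 most, which had the fewest reads, and its spread between libraries exceeded counting error. The cause was not tested for any change listed here. Fits with libraries left out also had fewer libraries.

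The replicate numbers were not taken as pairs, since the labels tie them to nothing and not every pair of same-numbered libraries had deviations correlated over 0.1. In the responses 10 of 36 pairs did (median -0.064) and a library correlated best with its own number in 20 of 72 matches. In the line comparisons 35 of 45 pairs did (median 0.24) and it did so in 69 of 90 matches. Same-numbered libraries of different genotypes thus often deviated together, which the main model leaves out. Some calls between genotypes therefore depend on this choice of model. With the replicate block, VRN-A1 for DH1 against Superb (0.22, edgeR adjusted p = 0.0387), VRN-B1 for DH2 against Superb (0.16, adjusted p = 0.0495), VRN-A1 for MeJA in Superb (-0.41, adjusted p = 0.0478) and VRN-B1 for MeJA over the genotypes (-0.21, adjusted p = 0.016) became called. No call of the homoeologs was lost, and the calls over all genes rose to 3879 for DH1 against Superb, 7481 for DH2 against Superb and 13894 for DH1 against DH2.

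In single conditions, of which MeJA, SA and ethephon were added after seeing the data, VRN-D1 was not called for DH1 against Superb under SA (-1.53), ethephon (-0.87), water (-1.11) and untreated (-1.50), nor for DH1 against DH2 under ethephon (-0.80) and water (-1.0). VRN-B1 for DH1 against DH2 was not called under MeJA (-0.30), SA (-0.32), ethephon (-0.22), water (-0.26) or untreated (-0.15). Under ethephon without both libraries that stood apart, an alternative added after seeing the data, VRN-D1 was -1.39 for DH1 against Superb, -1.09 for DH1 against DH2 and -0.30 for DH2 against Superb, and VRN-B1 -0.27 for DH1 against DH2, none of them called. For DH1 against Superb VRN-B1 turned to 0.019 under SA and 0.013 untreated. For DH2 against Superb VRN-D1 turned to -0.068 under ethephon, -0.10 under water and -0.0079 untreated, and to -0.012 without both ethephon libraries that stood apart, as VRN-A1 for ethephon over the genotypes did to 0.0029.

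VRN-A1 for water against untreated turned to -0.0081 in Superb and -0.0094 over the genotypes with RLE scaling, to -0.0074 and -0.0089 with DESeq2, and to -0.0094 in DH1, -0.026 in Superb and -0.024 over the genotypes with no filter. It was -0.023 in a fit of Superb alone. With no filter VRN-B1 for MeJA over the genotypes was called (-0.23, edgeR adjusted p = 0.046). In a fit of DH1 alone VRN-A1 for MeJA was not (-0.47, adjusted p = 0.0629).

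With libraries left out, including replicate numbers left out after seeing the data, log2 fold changes between genotypes ran from 0.18 to 0.25 for VRN-A1 in DH1 against Superb, from -0.30 to -0.23 for VRN-B1 in DH1 against DH2, and from -0.042 to 0.11 for VRN-D1 in DH2 against Superb. Under MeJA they ran from -0.63 to -0.33 for VRN-A1 in DH1, from -0.24 to -0.19 for VRN-B1 over the genotypes and from -0.14 to 0.56 for VRN-D1 in Superb. Under SA they ran from -0.30 to 0.028 for VRN-A1 in DH1 and from -0.097 to 0.018 in DH2, from -0.12 to 0.043 for VRN-B1 in DH1 and from -0.064 to 0.054 in DH2, and from -0.30 to 0.046 for VRN-D1 in DH1. Under ethephon they ran from -0.14 to 0.17 for VRN-A1 in DH1, from -0.074 to 0.054 in DH2 and from -0.080 to 0.024 over the genotypes, and from -0.18 to 0.0034 for VRN-B1 in DH1.

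For water against untreated they ran from -0.16 to 0.19 for VRN-A1 in DH1, from -0.15 to 0.076 in DH2, from -0.20 to 0.15 in Superb and from -0.075 to 0.061 over the genotypes. For VRN-B1 they ran from -0.24 to 0.014 in DH1, from -0.14 to 0.085 in DH2, from -0.16 to 0.20 in Superb and from -0.099 to 0.021 over the genotypes. For VRN-D1 they ran from -0.17 to 0.78 in DH1, from -0.63 to 0.034 in DH2 and from -0.27 to 0.061 over the genotypes.

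The number of genes called also moved. It was 3367 for DH1 against Superb, with 2054 without replicate 1, 1452 without replicate 2 and 739 to 883 in single conditions. For DH2 against Superb it was 6773, with 3081, 2727 and 803 to 1309 in the same settings, and for DH1 against DH2 it was 12921, with 7283, 8093 and 1676 to 3346. For SA it was 66 in DH1 (110 by DESeq2, 40 in a fit of DH1 alone), 31 in DH2 (51 and 14) and 13 in Superb (4 in a fit of Superb alone). For ethephon it was 1 in DH1 (11 with no filter, 2 with the replicate block, 9 by DESeq2, 0 alone) and 36 in Superb (23 with the replicate block, 73 by DESeq2, 0 alone). It was 0 in DH2 (7 by DESeq2, 1305 at an unadjusted p under 0.05) and 0 over the genotypes (9 by DESeq2). With each library left out in turn, the numbers ran from 21 (without water replicate 3) to 64 for SA in DH1, 11 (without water replicate 1) to 40 in DH2 and 0 (without water replicate 3) to 10 in Superb, and for ethephon from 0 to 63, 0 to 6 and 0 to 199, with 0 to 2 over the genotypes. For responses differing between genotypes they ran from 6 to 16 for MeJA (14 with all libraries), 0 to 1 for SA, 0 to 11 for ethephon and 1 to 31 for water against untreated (6 with all libraries). By Spearman's rho the genes with a value of at least 0.9 numbered 10 for VRN-A1, 1 for VRN-B1 and 0 for VRN-D1, against 53, 2 and 52 by Pearson's r.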
